A study of Homo sapiens with 9 samples.

Results

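The miR-320 family was examined on miRNA arrays of the human mast cell line HMC-1 and of the RNA that these cells released. All 5 members of the family, hsa-miR-320a, hsa-miR-320b, hsa-miR-320c, hsa-miR-320d and hsa-miR-320e (hsa stands for the human form and is left out from here on), have 1 probe each among the 2019 human miRNA probes of the array. They were taken by probe name, with earlier results of these data known. HMC-1 is an established line derived from a mast cell leukaemia, so the groups stand for 1 line and not for mast cells of tissue. RNA found outside the cells had been spread on a sucrose gradient and divided into a low density (LD) and a high density (HD) part. The study holds 3 LD samples, 3 HD samples and 3 samples of the RNA of the cells, the labels name no treatment, and LD, HD and cell samples with the same number come from 1 culture.

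MicroRNAs are short RNAs that guide Argonaute proteins to messenger RNAs, and bases 2 to 8 of the miRNA, the seed, carry most of the pairing. Most miRNA hairpins are released from a longer transcript by Drosha and then opened by Dicer. The miR-320 hairpin is known, from mouse and human cells, as an exception: its short capped precursor is made without Drosha, leaves the nucleus by exportin and is cut by Dicer, and the mature miRNA comes from the 3′ side of the hairpin. miR-320 is present in many human tissues and in blood.

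The mature sequences are shown for how close the members are to each other, which bears on how their probes can be read. The RefSeq table of assembly GRCh38.p14 held 4 of the 5 members, and 1 more probe of the array, miR-4429, has the seed of miR-320b, miR-320c and miR-320d. They are written 5′ to 3′ with the seed in capitals.
miR-320b: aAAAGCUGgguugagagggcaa
miR-320c: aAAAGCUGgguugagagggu
miR-320d: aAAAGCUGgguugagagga
miR-320e: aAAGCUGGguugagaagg
miR-4429: aAAAGCUGggcugagaggcg
The members differ at the 3′ end and in length, which runs from 22 bases in miR-320b to 20 in miR-320c, 19 in miR-320d and 18 in miR-320e. miR-320b and miR-320c share an unbroken run of 19 bases from their first base, and miR-320d shares 18 with each of them. miR-320e lacks the first base of the others, so its seed is shifted by 1 base, and it shares a run of 15 bases with the other 3. miR-4429 shares only 10 bases in a row with miR-320b, miR-320c and miR-320d, the seed included. GC content was 50% in miR-320b, miR-320c and miR-320e, 47.4% in miR-320d and 60% in miR-4429. How much of the signal of a member's probe comes from its paralogues was not tested.

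The same mature sequence can come from several loci, which an array cannot tell apart. RefSeq on GRCh38.p14 places miR-320b at chr1:116671787-116671808 on the plus strand (MIR320B1, in no other listed gene) and at chr1:224257049-224257070 on the minus strand (MIR320B2, within the span of NVL). miR-320c lies at chr18:21683559-21683578 (MIR320C1, within the span of ABHD3) and at chr18:24321716-24321735 (MIR320C2, within the span of OSBPL1A), both on the plus strand. miR-320d lies at chr13:40727828-40727846 (MIR320D1) and at chrX:140926172-140926190 (MIR320D2), both on the minus strand and in no other listed gene. miR-320e lies at chr19:46709294-46709311 on the minus strand, within the span of PRKD2, and miR-4429 at chr2:11540652-11540671 on the minus strand, within the span of GREB1. In these hairpins of 71 to 73 bases the mature miR-320 sequence begins at base 41, 42 or 44, in the 3′ part. Probes were joined to these loci by miRNA name, since no source used here gives coordinates for the array.

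The values are the authors' globally normalized intensities: a spot's intensity above the background of its array, multiplied so that the median detected miRNA probe of the array is 25. They are therefore relative to what each sample contains, and fewer molecules released and a smaller share of the released RNA cannot be told apart. A probe was taken as detected on an array where its normalized value is not empty, which needs a raw signal about 2 SD above the blank spots of the array. The files give 303 to 368 detected miRNA probes on the LD arrays, 254 to 329 on the HD arrays and 440 to 506 on the cell arrays. Where a probe was not detected its value lies below the lowest detected value of that array, the floor, which was 10.4 to 13.5 in LD, 11.6 to 12.8 in HD and 9.60 to 10.98 in cells. Of 5 blood and mast cell miRNAs (both arms of miR-142, with miR-223-3p, miR-222-3p and miR-221-3p), 5 were detected on all cell arrays and on all LD arrays, and 1 on all HD arrays. Of 5 serum and red cell miRNAs, miR-451a among them, 1 was detected on all LD arrays, 1 on all HD arrays and 1 on all cell arrays. In LD and HD this was miR-451a, but only 2 cell arrays detected miR-451a, so the 1 in cells was another. The summed signal of these 5 was 53.2 to 106 in LD, 68.2 to 597 in HD and 17.0 to 97.3 in cells. Of 5 epithelial miRNAs 0 were detected on all arrays of any group. The slides were confounded with the groups: per the names of the deposited files the 3 cell arrays were on 1 slide, the 3 HD arrays shared a slide with LD replicate 1, and LD replicates 2 and 3 were on another.

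All 5 members were detected on all 3 cell arrays and lay there above the median detected probe, whereas in the released RNA few arrays detected any of them. Of the 15 pairs of a member and an array, 1 was detected in LD (6.67%), 3 in HD (20%) and 15 in cells. Blank spots, which hold no probe, passed the same limit at 5.44% to 7.27% on LD arrays, 5.19% to 6.39% on HD arrays and 5.93% to 6.82% on cell arrays. Over all tested probes, 62.8% of the pairs of a probe and an array were detected in LD, 54.0% in HD and 88.7% in cells. By the stricter count of probes detected on every array of a group, the share among the 277 probes detected on all 3 cell arrays was 55.6% in LD and 32.9% in HD. The 3 members without any detection in the released RNA, miR-320b, miR-320d and miR-320e, are among 41 tested probes with that pattern.

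**Figure D1:**
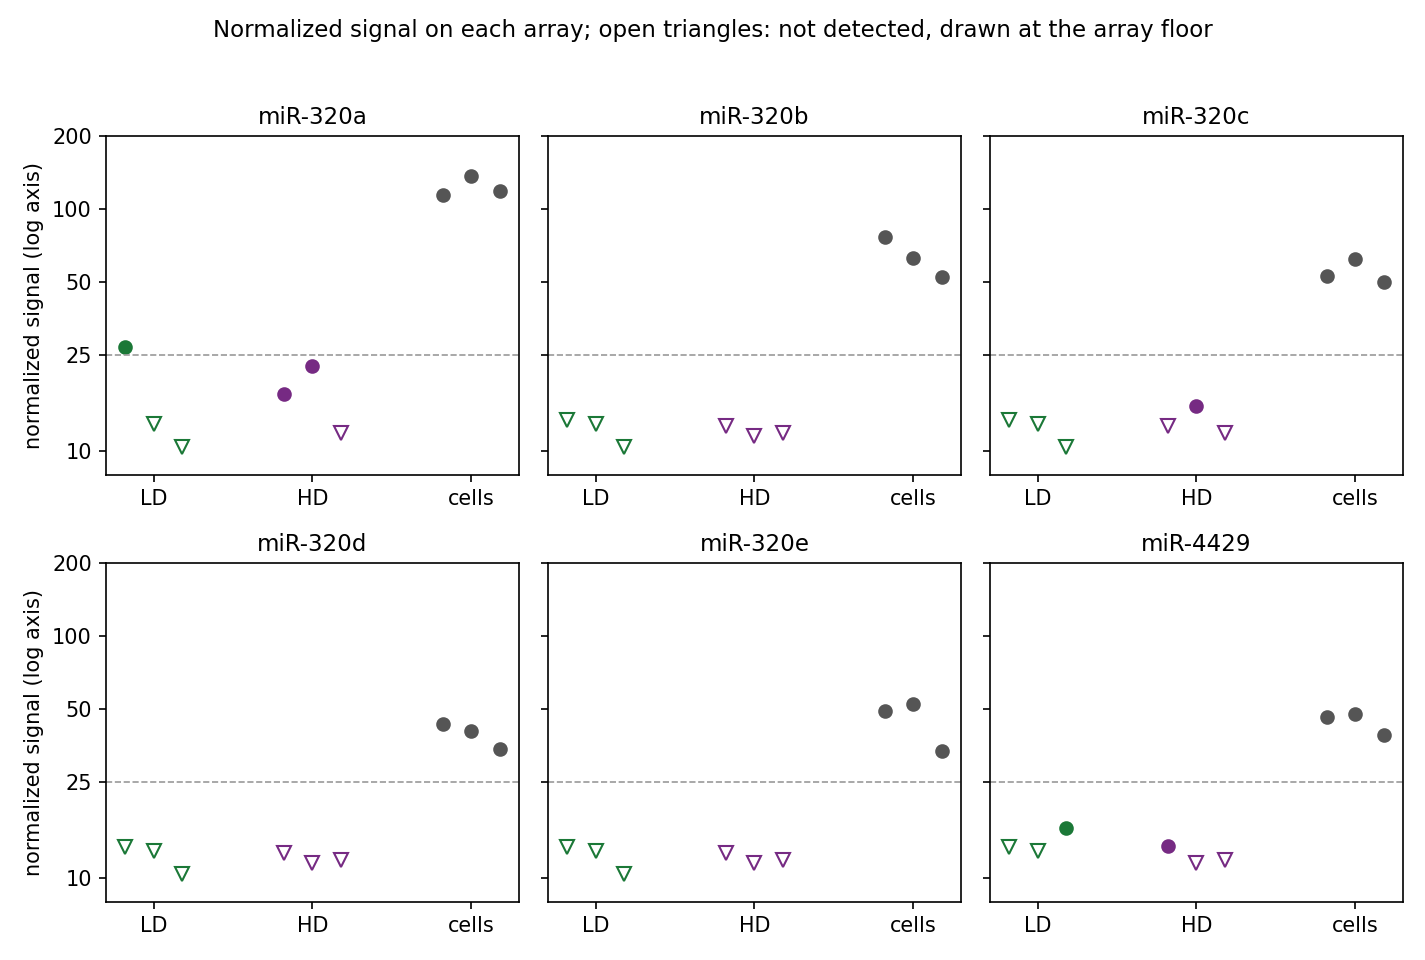
Normalized signal (log axis) of each miR-320 member and of miR-4429 on the 3 LD, 3 HD and 3 cell arrays. Filled circles are detected values, open triangles stand at the array floor where the probe was not detected, and the dashed line is the median detected probe at 25. All cell values of the members lie between 33.6 and 137, and 4 of the 30 values of members in LD and HD are detected.

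miR-320a, the best studied member, was the member detected most often in the released RNA, on 1 LD array and 2 HD arrays. Its normalized signal was 27.0 on LD replicate 1 and below the floors of 13.0 and 10.4 on LD replicates 2 and 3. In HD it was 17.3 and 22.6 on replicates 1 and 2 and below the floor of 12.0 on replicate 3. The cell arrays gave 114, 137 and 119. Every cell value was above every LD and HD value, and within each fraction the arrays ran from undetected to values near the median probe. Its geometric mean was 15.4 in LD (SD 0.72 on the log2 scale, n = 3, with 2 floor values) and 123 in cells (SD 0.14, n = 3), a log2 change of -2.998 ± 0.35 (SE; limma adjusted p = 4.26e-05). In HD the geometric mean was 16.7 (SD 0.46, with 1 floor value), a log2 change of -2.88 ± 0.35 against cells (adjusted p = 2.51e-05). On the authors' scale both changes understate the difference, since some values in the released RNA are floors.

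miR-320b, the longest of the printed members, was detected on no LD array and no HD array. In cells its signal was 77.0, 63.1 and 52.4, so that cells and released RNA did not overlap. It was at least 5.19-fold lower in LD than in cells (log2 change -2.38 ± 0.27, adjusted p = 3.23e-05) and at least 5.24-fold lower in HD (-2.39 ± 0.27, adjusted p = 1.25e-05), where the bound sets the mean in cells against the mean floor.

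miR-320c, which shares 19 bases with miR-320b, was detected on HD replicate 2 alone, at 15.4, and on no LD array. Its cell signals were 53.3, 62.4 and 50.2, all far from the value in HD. It was at least 4.50-fold lower in LD (log2 change -2.17 ± 0.26, adjusted p = 5.28e-05), and its log2 change in HD, with 2 floor values, was -2.05 ± 0.26 (adjusted p = 3.65e-05).

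The shortest printed members, miR-320d and miR-320e, were detected on every cell array and on no array of the released RNA. miR-320d had 43.5, 40.8 and 34.3 in cells. It was at least 3.22-fold lower in LD (log2 change -1.69 ± 0.26, adjusted p = 0.000287) and at least 3.25-fold lower in HD (-1.70 ± 0.26, adjusted p = 0.000149). miR-320e, with the shifted seed, had 49.0, 52.6 and 33.6 in cells and was at least 3.62-fold lower in LD (-1.86 ± 0.27, adjusted p = 0.00021) and at least 3.66-fold lower in HD (-1.87 ± 0.27, adjusted p = 9.74e-05). Because the released RNA is at the same floor for each member, these bounds differ only through the members' signals in cells and do not rank how far each member fell.

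Thus 5 of 5 members fell in LD and 5 of 5 in HD at an adjusted p under 0.05 over the 334 probes tested. Every member passed the detection filter through the cell arrays alone, which is where they are high, so the count by itself is no support for a family-wide effect. Of all tested probes 44% were called lower in LD and 49.4% in HD. The groups did not overlap for 5 of 5 members in either comparison, against 46.1% of tested probes that were lower without overlap in LD and 49.1% in HD. Among the 277 tested probes detected on all 3 cell arrays, which passed the filter as the members did, 53.1% were called lower in LD and 59.6% in HD. The median log2 change of the members was -2.17 in LD and -2.05 in HD, against -1.01 and -1.35 over those 277 probes and -0.54 and -0.70 over all 334. The members' medians rest on floor values, as most of their values in the released RNA do, and are read here as a description alone.

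**Figure D2:**
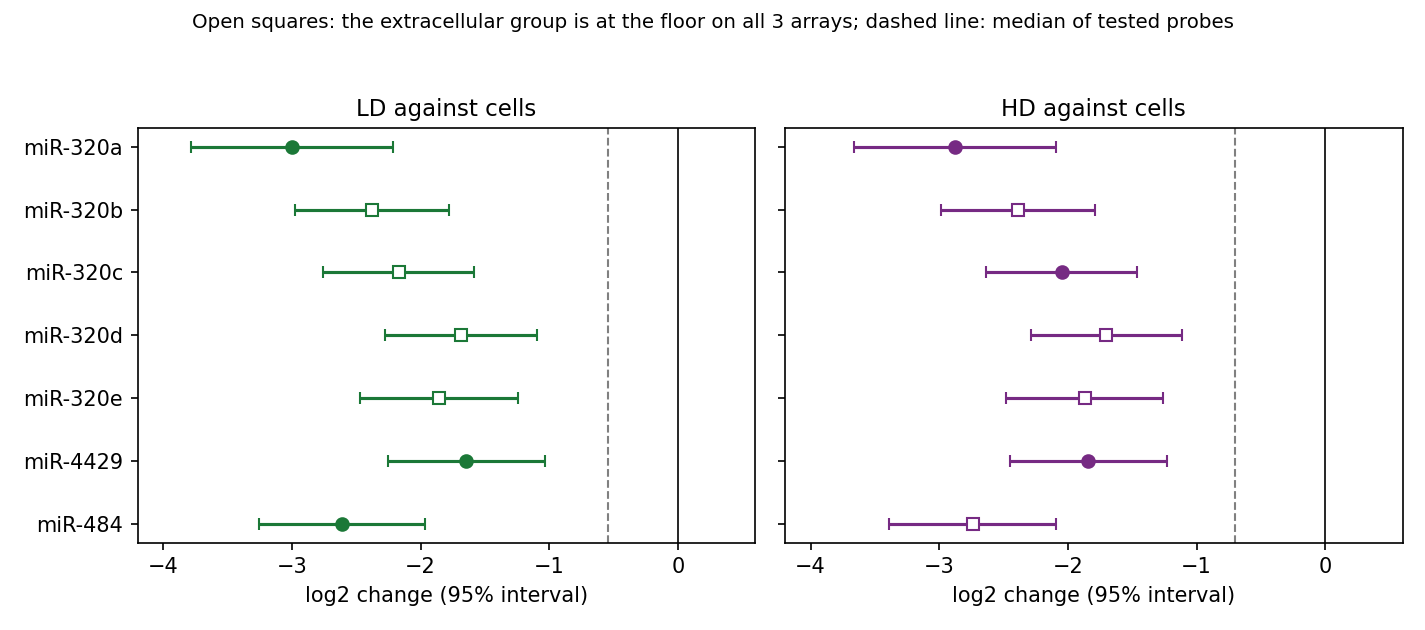
Log2 change of LD against cells (left) and HD against cells (right) for the 5 members, miR-4429 and miR-484, with 95% intervals of the limma fit. Open squares mark miRNAs at the floor on all 3 arrays of the released RNA, whose change is a bound, and the dashed line is the median of the 334 tested probes (-0.54 in LD, -0.70 in HD). Every interval shown lies below 0.

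The raw signals were also set against the blank spots of the same array, in units of the SD of those spots, which differs between arrays (1.17 to 7.21) and is itself a scale for each array. miR-320a stood 20.9 to 27.1 SD of the blank spots above their mean in cells, 1.25 to 3.99 SD in LD and 0.82 to 4.06 SD in HD. On LD replicate 1 and HD replicate 2, its raw signal was above that of 99% and 98.8% of the blank spots. miR-320b stood 10.9 to 14.1 SD above the blank mean in cells, and between -1.67 and 1.81 SD in LD and -2.09 and 2.03 SD in HD. The 2.03 SD was on HD replicate 2, where the limit of detection was 2.10 SD. The raw signals of miR-320d in LD ran from -0.50 to 0.18 SD, and those of miR-320e from -1.77 to 0.61 SD, so both lay within the blank spots there. miR-320c in LD was between 1.47 and 1.88 SD on each of the 3 arrays, just under the limit of detection.

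**Figure D3:**
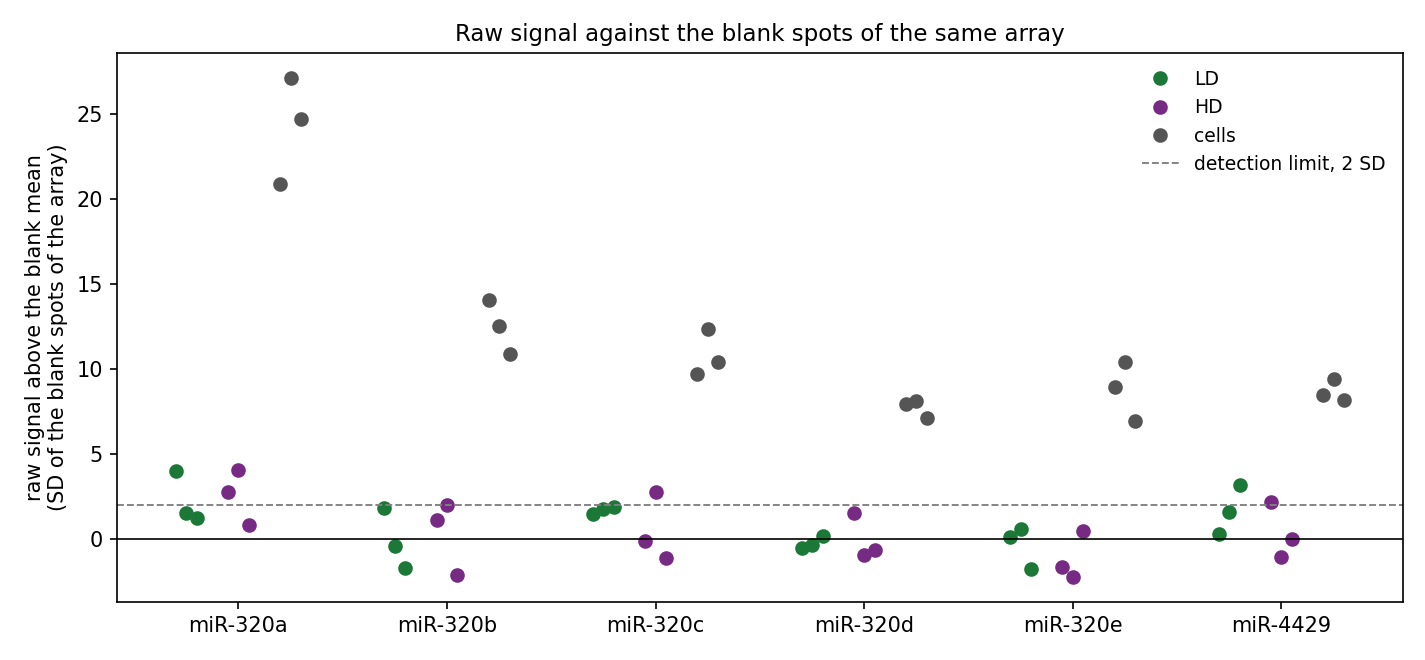
Raw signal of each member and of miR-4429 above the mean of the blank spots of its own array, in SD of those spots, for the 3 LD, 3 HD and 3 cell arrays. The dashed line is at 2 SD, near the limit of detection, which ran from 1.99 to 2.10 SD between arrays. Cell values of the members lie between 6.97 and 27.1 SD, and no value in LD or HD is above 4.06 SD.

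The falls depended on how the arrays were made comparable. The spots of the 2 spike controls, RNAs that are added to a sample to set a scale, had a median signal 166 to 387 times the floor on LD arrays, 152 to 232 times on HD arrays and 1382 to 1761 times on cell arrays. Set against the median spike signal of its array, the floor was at 0.259% to 0.603% in LD, 0.43% to 0.658% in HD and 0.0568% to 0.0724% in cells. On the same measure miR-320b, miR-320c, miR-320d and miR-320e in cells lay between 0.225% and 0.398%, below the floor of each HD array, and miR-320a in cells between 0.592% and 0.896%. A level equal to that of cells by the spike controls would thus not have been detected for these 4 members on the HD arrays. In LD the floor was 0.603% on replicate 1, 0.285% on replicate 2 and 0.259% on replicate 3. On LD replicates 2 and 3 it lay below the cell levels of miR-320a and of miR-320b (0.3825% to 0.398%). Levels of miR-320a and miR-320b equal to those of cells would have been detected there, and neither was. The cell levels of miR-320c, miR-320d and miR-320e did not all lie above both floors. With the spike controls as the scale, 0 of 5 members were called lower in LD, where 9.28% of tested probes were, and 0 of 5 in HD, where 16.8% were. The log2 change of miR-320a was then -0.77 in LD (adjusted p = 0.14) and 0.01 in HD (adjusted p = 0.976). miR-320d and miR-320e were called higher in HD at 1.19 and 1.02, where 66.8% of tested probes were, but both were detected on no HD array, so these values compare a floor with the cells and no rise was shown. The median of all tested probes moved to 1.69 in LD and 2.19 in HD under that scaling (a factor for each array moves all probes alike). With no scaling 1 member, miR-320a, fell in LD, where 14.7% of tested probes did, and 3, miR-320a, miR-320b and miR-320c, fell in HD, where 33.2% did. All 5 were called lower in both comparisons under scaling on the probes that every array detected, quantile normalization, normexp correction (a model of signal plus background in place of subtraction) and in the authors' deposited log2 values. The shares of all tested probes called lower were 56% in LD and 65.9% in HD on the probes that every array detected, and 38.6% and 45.5% by quantile normalization. They were 36.2% in LD and 44.3% in HD by normexp, and 35.3% and 43.5% in the deposited log2 values.

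**Figure D4:**
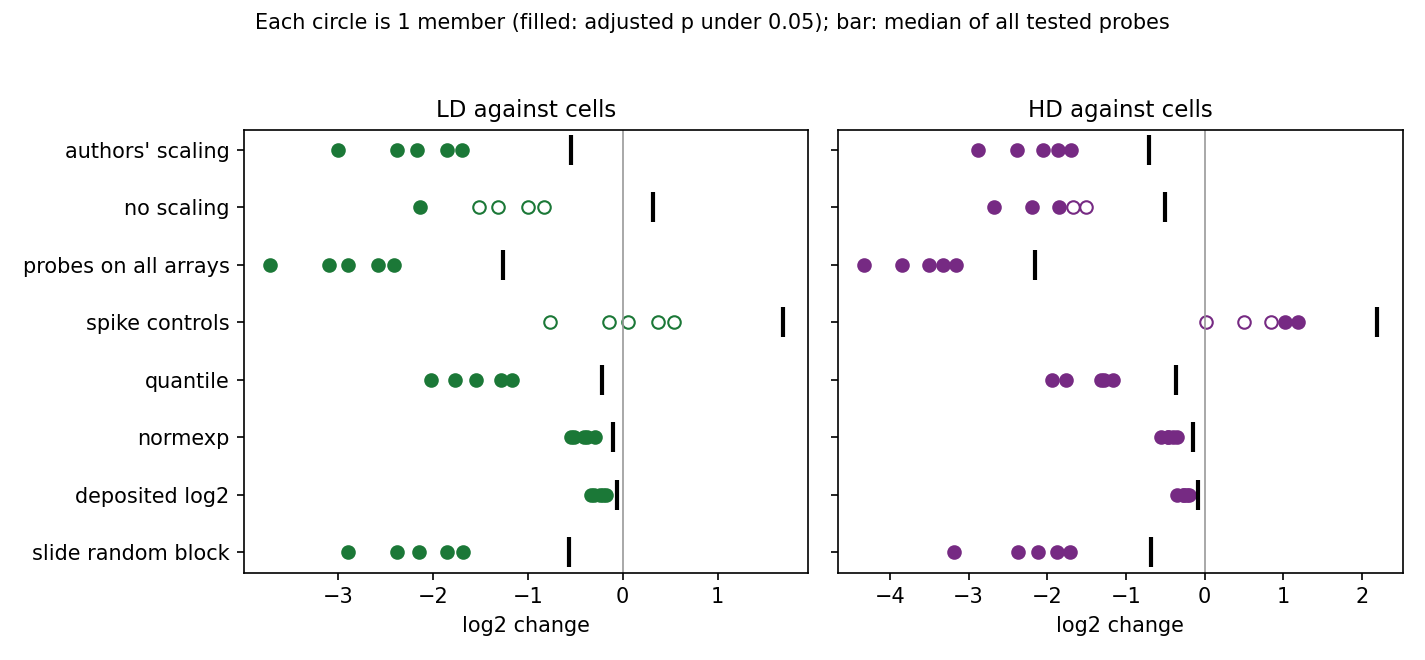
Log2 change of the 5 members for LD against cells (left) and HD against cells (right) under the authors' scaling and 7 other settings. Each circle is a member, filled where the adjusted p is under 0.05, and the black bar is the median of all tested probes. Scaling by 1 factor for each array moves the members and the bar together. The members lie left of 0 except, on the spike controls, for 3 of 5 in LD and 5 of 5 in HD. On the spike controls, a member that no array of the fraction detected is a floor set against cells, which shows no rise.

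With slide as a random block, 5 of 5 members were called lower in LD, where 35% of tested probes were, and 5 of 5 in HD, where 39.8% were. The members' median was then -2.15 in LD and -2.12 in HD, against -0.57 and -0.68 over all tested probes. LD and HD each lay on other slides than the cells, so in both comparisons slide and group cannot be told apart. In the deposited log2 values, from which no background had been subtracted, miR-320a averaged 6.88 ± 0.13 in LD, 6.87 ± 0.08 in HD and 7.22 ± 0.04 in cells (SD, n = 3), and miR-320e averaged 6.72 ± 0.06 in LD, 6.69 ± 0.07 in HD and 6.96 ± 0.01 in cells. The groups of cells and released RNA did not overlap for these miRNAs on that scale. The share of all tested probes without overlap was not counted there. Under the authors' scaling 46.1% of tested probes were lower without overlap in LD and 49.1% in HD.

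LD and HD were compared to ask whether the family is divided between the fractions. Neither fraction had a member detected on all 3 arrays, and no member was called (0 of 5; limma adjusted p from 0.852 to 0.975), against 52.1% of the tested probes called in either direction. At an unadjusted p under 0.05 the count was also 0. For miR-320b, miR-320d and miR-320e both fractions were at the floor on every array. Their tests therefore set floors against floors, could not have called them, and no fold can be given. All 5 members also entered the test through the cell arrays alone, so their count is not read against the share of all tested probes. For miR-320a the log2 difference of LD from HD was -0.12 with a 95% interval from -0.91 to 0.67, partly from floor values. On the slide that holds LD replicate 1 and all HD arrays, it was 0.69, and with slide as a block 0.64 (adjusted p = 0.585). A difference between the fractions was not detectable at these signals, which does not show that their levels are the same.

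miR-4429, the probe outside the family with the seed of miR-320b, miR-320c and miR-320d, was also lower in the released RNA. Its signal in cells was 46.3, 47.6 and 39.3, and it was detected on LD replicate 3 at 16.1 and on HD replicate 1 at 13.6, near the floor in both. Its log2 change was -1.65 ± 0.27 in LD (adjusted p = 0.000436) and -1.84 ± 0.27 in HD (adjusted p = 0.000106). These calls ended in LD with no scaling (-0.79), by normexp (-0.23), with spike scaling (0.58) and in the authors' log2 table (-0.14), and in HD with no scaling (-1.64), while on the spike controls it was called higher in HD at 1.05 with 2 floor values.

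Other miRNAs described as bypassing a step of the usual pathway were set beside the family. miR-484, whose precursor is capped and made without Drosha like that of miR-320, had 107, 86.5 and 57.0 in cells, was detected on LD replicate 3 alone at 13.2 and on no HD array. It fell in LD with a log2 change of -2.61 ± 0.29 (adjusted p = 3.17e-05) and was at least 6.68-fold lower in HD (adjusted p = 8.13e-06). Without scaling it was called lower in HD only, and on the spike controls in neither. A list of miRNAs described as mirtrons rose in part. Mirtrons are hairpins that are spliced introns and need no Drosha, but how each listed miRNA is made was not tested. Of 8 tested of 24 listed probes, 4 rose and 0 fell in LD and 6 rose and 0 fell in HD. Over all tested probes 16.8% were called higher in LD and 30.5% in HD. The median log2 change of the 8 listed probes was 0.57 in LD and 2.24 in HD. These counts moved with the setting: scaling on the probes that every array detected gave 1 higher and 2 lower in LD, 4 higher and 2 lower in HD, and the unscaled values and the random block for slide each gave 1 higher in LD. On the spike controls 8 of 8 were higher in LD and in HD, and quantile normalization, normexp and the deposited log2 values each gave 8 of 8 higher in HD. miR-1234-5p, for example, averaged 920 in LD, 5690 in HD and 234 in cells, and miR-1229-5p averaged 34.3 in LD, 334 in HD and 17.6 in cells. miR-1224-5p, which passed the detection filter through the HD arrays alone, was at least 15.1-fold higher in HD. miR-451a, which needs Drosha and bypasses Dicer, was detected on all LD and HD arrays, with 32.9, 72.6 and 95.4 in LD, 568, 49.6 and 121 in HD, and 52.4 and 37.1 on the 2 cell arrays that detected it. The groups overlapped; its log2 change was 1.14 ± 0.86 in LD (adjusted p = 0.281) and 2.44 ± 0.86 in HD (adjusted p = 0.0229), a call that ended with slide as a random block (adjusted p = 0.122) and on the probes that every array detected (adjusted p = 0.144). In LD it was called higher with no scaling (2.00, adjusted p = 0.0414) and on the spike controls (3.37, adjusted p = 1.99e-11).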

How the data were processed

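Labelled (Hy5) total RNA of 9 samples was hybridised to 1-colour miRNA arrays, per the labels' protocols. The deposited intensity columns are raw, background-subtracted and globally normalized, per the file headers. Set against each other, they show 1 background value subtracted per array, values left empty near the background, and 1 factor per array. A table of log2 values was also deposited by the authors, and was used as an alternative. No source used here names the scanner or its software.

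Tests used limma 3.58.1 in R 4.3.3 on log2 of the normalized intensity, with group and culture in the model, over the 334 probes that all 3 arrays of some group detected (4 residual and 6.05 prior degrees of freedom). Undetected values were set to the array floor, and 25 values of miRNA probes whose flag was not OK were left out. Benjamini-Hochberg adjusted p under 0.05 over all 334 probes was the threshold, two-sided. Culture pairs samples per the series' design text; deviations of same-culture arrays correlated at -0.28 to 0.21, with 1 of 9 pairs over 0.1. P-values measure the spread between these samples, part of which is the spread of the floors, and the number of arrays limits the precision. The script was tested on simulated data. Figures used matplotlib 3.10.9 in Python 3.11.15.

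The members and lists were chosen with earlier results of these data known. By rule the text names all members, probes of other miRNAs sharing their seed, miR-484, miR-451a, the 3 mirtrons of largest change in a comparison, and the probes most correlated with the members. A test of unequal change between members was planned for pairs detected on all 9 arrays, but 0 members met that condition, so it was not run; for the same reason likeness was computed on the deposited log2 values, a choice made after seeing the data, as was setting the members beside the probes detected on all cell arrays.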

Additional observations from a re-analysis of the deposited data

How the results depend on the processing

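Leaving out any 1 of the 9 arrays kept 5 of 5 members lower in LD and in HD, while 132 to 149 of the 334 tested probes were lower in LD and 153 to 167 in HD. The members' log2 changes ran from -3.42 to -1.62 in LD and from -3.14 to -1.63 in HD. Without the replicate block 5 of 5 members were also lower in both, with 146 probes lower in LD and 166 in HD. The calls depended on scaling and on floor values. Members called lower numbered 1 in LD and 3 in HD with no scaling, 0 in each when the spike controls set the scale, and 1 and 2 with undetected values left missing, where only miR-320a (LD) and miR-320a and miR-320c (HD) could be fitted; 2 were called higher in HD on the spike controls. On the spike controls the values were above 0 for miR-320c, miR-320d and miR-320e in LD (0.058, 0.54 and 0.37). In HD they were above 0 for miR-320a to miR-320e (0.014, 0.50, 0.84, 1.19 and 1.02). No LD array detected miR-320c, miR-320d or miR-320e, and no HD array detected miR-320b, miR-320d or miR-320e. Their values set floors against cells, so they are upper bounds and show no rise. Those of miR-320a and miR-320c in HD rest partly on floors. The LD against HD difference of miR-320a, never called, turned positive with no scaling (0.54), on the probes detected on all arrays (0.61), by normexp (0.0014), in the deposited log2 values (0.0087), with missing values (0.61) and with slide as a random (0.29) or fixed block (0.64); leaving out 1 array gave -0.54 to 0.15. No member is detected on all 9 arrays, so that filter gives no member value.

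Over all tested probes, where the main counts were 147 lower and 56 higher in LD, 165 lower and 102 higher in HD, and 88 lower and 86 higher for LD against HD, several counts moved by more than 1.5 times. With no scaling, 49 were lower in LD and 29 lower in LD against HD. On the probes detected on all arrays, 20 were higher in LD, 55 higher in HD and 53 lower in LD against HD. On the spike controls, 31 were lower and 202 higher in LD, 56 lower and 223 higher in HD, and 52 higher in LD against HD. Quantile normalization gave 92 higher in LD. With missing values, 90 were lower in LD, 63 lower in HD and 50 higher in LD against HD. Tests on only the 81 probes that every array detected gave 5 lower in LD, 8 lower and 50 higher in HD, and 39 lower and 15 higher in LD against HD. Slide as a random block gave 16 higher in LD, and as a fixed block 33 higher in LD against HD. Leaving out 1 array gave 32 to 65 higher in LD, the lowest without cell replicate 3. The cause of these moves was not tested. Where probes or values were left out, fewer were there to be called. Signals of the members in LD and HD near the blank spots limit every statement on their level there.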

Other observations

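On the deposited log2 values, which exist for every probe and array, the 5 members followed each other over the 9 arrays, with Pearson correlations between members from 0.76 (miR-320c and miR-320e) to 0.97 (miR-320a and miR-320b). The arrays share the 3 groups, so these describe mainly the step between cells and released RNA, and paralogous probes may share signal. miR-4429 correlated with the members at 0.64 to 0.91, highest with miR-320d. Outside the family the 3 of 326 tested probes most like the mean of the members were miR-664b-3p (0.97), miR-93-5p (0.96) and miR-30e-3p (0.96). miR-93-5p, of a paralogue of the miR-17-92 cluster, was detected on all 3 LD arrays, on no HD array and on all 3 cell arrays, a detection pattern other than that of any member.

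The members are less rich in G and C than most probes that were measured. Over the 277 tested probes with a sequence by name, the median GC content was 59.1%, with quartiles of 45.8% and 71.4%, against 47.4% to 50% in the 4 members with a sequence. Across these probes GC content correlated with the log2 change, floor values included, at 0.67 in LD and 0.58 in HD against cells. Probes are not independent replicates, and signal on an array itself depends on base composition. Whether base composition bears on the changes of the members was not tested. The motifs GGAG and CCCU, searched on the miRNA strand because they are known from work on miRNA sorting into vesicles, were in 0 of the 4 member sequences; they were in 25.3% and 6.86% of the tested probes with a sequence.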
